A study of Homo sapiens with 66 samples.

Results

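The Notch receptors, their ligand JAG1, the DNA-binding factor RBPJ and the HES and HEY target genes were examined as 9 genes chosen by symbol from the 57992 gene identifiers analysed. They are NOTCH1, NOTCH2, NOTCH3, NOTCH4, JAG1, RBPJ, HES1, HES4 and HEY1. RNA was sequenced from 11 established lines of acute myeloid leukemia (AML): THP-1, OCI-AML3, NB-4, OCI-AML2, HL-60, NOMO-1, MV-4-11, F-36P, MONO-MAC-6, KASUMI-1 and MOLM-13. Each was left untreated in medium or exposed for 24 hours to etoposide, a topoisomerase II poison, at that line's own IC50, so that the drug concentration differs between lines. There were 3 libraries per line and condition, 66 in all, each from pooled wells of 1 line, so that p-values within a line cover the spread between cultures of that line. The question here was how the basal level of the Notch genes and their change with etoposide varied from line to line, and how receptors and targets stood side by side. The OCI-AML2 etoposide libraries failed the study's quality control and are described apart, so that counts of responses run over 10 cell lines.

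Notch receptors are single-pass membrane proteins that bind Jagged and Delta-like ligands on neighbouring cells. Ligand binding exposes the receptor to cleavage by an ADAM protease and then by gamma-secretase, and the released intracellular domain joins RBPJ and a Mastermind coactivator on DNA to switch on genes such as HES1, HES4 and HEY1, which encode transcriptional repressors. The pathway is best known in blood for directing progenitors to the T cell lineage. RNA levels, which were measured here, do not show receptor cleavage.

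On GRCh38, the receptor genes all lie on the minus strand, NOTCH1 (ENSG00000148400.9) at chr9:136494433-136546048, NOTCH2 (ENSG00000134250.18) at chr1:119911553-120100779, NOTCH3 (ENSG00000074181.8) at chr19:15159038-15200995 and NOTCH4 (ENSG00000204301.6) at chr6:32194843-32224067. JAG1 (ENSG00000101384.11) is at chr20:10637684-10673999 on the minus strand and RBPJ (ENSG00000168214.20) at chr4:26163455-26435131 on the plus strand. HES1 (ENSG00000114315.3) is at chr3:194136148-194138732 on the plus strand and HES4 (ENSG00000188290.10) at chr1:998962-1000172 on the minus strand. The identifier of HEY1 is ENSG00000164683.16. All 9 are protein-coding genes, and reads were counted over their exons.

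The sequences upstream of both HES genes are shown because they carry the short core that RBPJ recognizes, TGGGAA, whereas those of NOTCH1 and JAG1 do not carry it. Each run is the 250 bases before the RefSeq start of the gene on GRCh38.p14, read along the gene's strand, with matches to TGGGAA or its reverse complement TTCCCA in capitals. The HES1 window is chr3:194135898-194136147 on the plus strand, with matches starting 84 and 70 bases before the start. That of HES4 is chr1:1000098-1000347 on the minus strand, with a match at 76 bases before the start. Those of NOTCH1, chr9:136546049-136546298, and JAG1, chr20:10674000-10674249, both on the minus strand, hold none.
HES1: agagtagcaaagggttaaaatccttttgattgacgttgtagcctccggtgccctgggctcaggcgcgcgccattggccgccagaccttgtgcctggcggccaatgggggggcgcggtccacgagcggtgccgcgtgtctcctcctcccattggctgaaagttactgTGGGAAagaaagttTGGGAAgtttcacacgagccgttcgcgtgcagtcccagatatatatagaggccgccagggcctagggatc
HES4: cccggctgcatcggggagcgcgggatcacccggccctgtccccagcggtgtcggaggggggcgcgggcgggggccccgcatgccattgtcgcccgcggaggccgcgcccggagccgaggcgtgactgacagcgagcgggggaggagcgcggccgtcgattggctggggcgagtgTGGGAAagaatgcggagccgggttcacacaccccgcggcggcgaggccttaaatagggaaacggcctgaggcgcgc
NOTCH1: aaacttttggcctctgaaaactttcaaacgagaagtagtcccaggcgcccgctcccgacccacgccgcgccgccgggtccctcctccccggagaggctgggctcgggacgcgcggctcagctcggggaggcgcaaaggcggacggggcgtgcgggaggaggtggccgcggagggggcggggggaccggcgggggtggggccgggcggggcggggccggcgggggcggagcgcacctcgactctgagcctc
JAG1: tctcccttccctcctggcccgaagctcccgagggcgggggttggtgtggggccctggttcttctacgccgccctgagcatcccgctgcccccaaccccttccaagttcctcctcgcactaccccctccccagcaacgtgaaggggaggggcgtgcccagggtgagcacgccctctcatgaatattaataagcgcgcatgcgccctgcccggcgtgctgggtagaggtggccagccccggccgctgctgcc
Among 35116 promoter windows of this length, 20.8% hold at least 1 core match and 2.9% hold 2 or more. The longer GTGGGAA, which contains the core, is in 5.4% of windows and occurs once in each of the HES1 and HES4 windows. Of the RBPJ windows, which start at several places, that at chr4:26319496-26319745 holds 2 matches of the core and 2 of the longer form, so that matches are not particular to the target genes. A match describes letters in this window and shows no binding.

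Each library held between 17997404 and 24101670 reads on genes (median 20241014). The leukocyte gene PTPRC and the myeloid factor SPI1 were present in all lines, with mean untreated levels from 32.5 CPM (reads on the gene per 1000000 reads of the library, with TMM normalization) in KASUMI-1 to 540.5 CPM in OCI-AML2 for PTPRC. Markers of other lineages were not absent everywhere. The 3 T cell markers summed to 172 to 201 CPM in untreated NOMO-1, mostly from CD3D, the 5 erythroid markers to 1066 to 1189 CPM in untreated F-36P, and the endothelial gene TEK averaged 33.1 CPM in untreated F-36P. Their part in the Notch gene levels was not tested. CDKN1A, a p53 target that responds to DNA damage, served to check exposure and rose in all 10 lines, with a mean log2 change of 3.33 ± 1.06 (SD over lines). Of the other p53 targets looked at, BTG2 also rose in all 10 (2.38 ± 0.98). MDM2 was above 0 in only 7 (0.64 ± 0.95, exact sign-flip adjusted p = 0.0971), so p53 targets did not respond alike.

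Among the receptors, untreated cells of all lines but F-36P carried mainly NOTCH2 and NOTCH1 RNA. RBPJ was abundant, whereas NOTCH3 exceeded 2 CPM in 2 lines and NOTCH4 was close to the counting limit in all 11. In F-36P NOTCH3, at 37.7 CPM, exceeded NOTCH1, at 4.95 CPM. NOTCH1 averaged 107 ± 6.33 CPM (SD, n = 3) in NOMO-1, the highest line, and 44.3 ± 4.32 CPM in NB-4, the second lowest. F-36P was far below every other line. Its 3 libraries held 5.13, 4.61 and 5.12 CPM, against a mean of 71.3 CPM in the other 10 lines, a log2 difference of -3.80 (SE 0.119, adjusted p = 5.43e-25 by the edgeR quasi-likelihood test). NOMO-1 was called higher than the others by 1.08 (SE 0.071, adjusted p = 2.06e-15), but with F-36P left out of the fit the difference was 0.70 and no longer above 2-fold. Between these ends, the libraries of OCI-AML3, MOLM-13 and MV-4-11 overlapped in turn, and so did those of OCI-AML2, MONO-MAC-6, THP-1, KASUMI-1 and HL-60.

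NOTCH2 was highest in the same F-36P cells that had the least NOTCH1. F-36P held 238 ± 23.5 CPM and OCI-AML3 230 ± 15.8 CPM, and these libraries overlapped. KASUMI-1 stood apart at the bottom, with 29.8, 29.9 and 27.9 CPM in its libraries against a mean of 157 CPM in the others (log2 difference -2.37, SE 0.075, adjusted p = 1.13e-24, edgeR). Per transcript length, the median over lines was 12.1 RPKM (CPM per kilobase of transcript) for NOTCH2 and 7.15 RPKM for NOTCH1, and NOTCH2 exceeded NOTCH1 in 10 of 11 lines. KASUMI-1 was the exception, at 2.56 RPKM for NOTCH2 and 5.87 RPKM for NOTCH1. NOTCH2 has near-identical partial copies in the genome, so reads shared with them may be divided among them or left uncounted. The 1 copy matched here, NOTCH2NLA, held 229 reads in 66 libraries against 203521 for NOTCH2. Its count cannot show whether shared reads were left uncounted.

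NOTCH3 had 43.0, 37.0 and 32.98 CPM in the F-36P libraries and 5.02, 4.82 and 5.24 CPM in those of OCI-AML3. These lines lay above all others, of which KASUMI-1 was next with 1.42 ± 0.449 CPM, and MOLM-13, OCI-AML2 and MV-4-11 each had at most 2 reads in 3 libraries. The fitted basal contrast called NOTCH3 in 7 lines, 4 higher and 3 lower, on a log scale where lines near 0 weigh heavily. It called KASUMI-1 and MONO-MAC-6 higher although their CPM lay below the arithmetic mean of the other lines. The MONO-MAC-6 call was lost without replicate 2 or replicate 3 (0.94 and 0.95). The lower calls in MOLM-13, MV-4-11 and OCI-AML2 were lost without replicate 1, which held all of their reads. NOTCH4 had 105 reads in all 66 libraries and at most 0.0994 CPM in any untreated line. It overlaps GPSM3 on the same strand, so its few reads are uncertain. A count of 3 reads in the 3 libraries of a group, the limit that a count of 0 allows, correspond to 0.0408 to 0.0567 CPM, for counting error only.

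JAG1, a ligand, spanned a wider range than NOTCH1 or NOTCH2 and was called in 9 of 11 lines. It had 142, 132 and 172 CPM in the NB-4 libraries and 87.1, 97.4 and 90.5 CPM in those of HL-60, whereas MV-4-11 had 0.790, 0.424 and 0.731 CPM. The highest line mean was 229 times the lowest, beside 21.6 times for NOTCH1 and 8.14 times for NOTCH2. NB-4, HL-60, MOLM-13, NOMO-1 and OCI-AML3 were called higher, and MONO-MAC-6, OCI-AML2, THP-1 and MV-4-11 lower. Only MOLM-13 and NOMO-1 were neighbours in the order with overlapping libraries. RBPJ, by contrast, ranged 3.18-fold, from 89.2 ± 27.1 CPM in F-36P to 284 ± 2.39 CPM in OCI-AML2, and was called in no line (0 of 11 by edgeR). Per length it exceeded all 4 receptors in 10 of 11 lines, the exception being F-36P, with 16.5 RPKM for RBPJ and 20.8 RPKM for NOTCH2.

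HES1, the most abundant of the 3 targets in counts, divided the lines sharply. NB-4 had 13.3, 17.04 and 13.6 CPM and F-36P 16.1, 15.02 and 12.7 CPM, and these overlapped. HL-60 followed with 8.67 ± 1.20 CPM and NOMO-1 with 5.02 ± 0.561 CPM. THP-1 had 1.49 ± 0.548 CPM and KASUMI-1 0.848 ± 0.163 CPM, and the other 5 lines were at or below 0.307 CPM. MONO-MAC-6 had no HES1 read in its untreated libraries. The basal contrast called 5 lines higher and MONO-MAC-6 lower. As for NOTCH3, the log scale matters, since THP-1 was called higher although the other lines averaged 4.45 CPM. MV-4-11 and OCI-AML3, with 5 and 3 reads, had no finite SE, and the SE was 171 in MOLM-13 and 1094 in OCI-AML2. The contrast could thus decide nothing in these low lines, and the call does not set MONO-MAC-6 apart from them. The THP-1 call was lost without replicate 3 (log2 difference 0.95). Per length, HES1 lay below NOTCH1 in 9 of 11 lines, the exceptions being F-36P, at 9.28 RPKM for HES1 and 0.518 RPKM for NOTCH1, and NB-4, at 9.29 and 4.63 RPKM.

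HEY1 was found mainly in F-36P, at 0.780, 0.759 and 0.913 CPM. No other line averaged more than 0.197 CPM, the level of MV-4-11, whose basal call rested on 9 of 12 reads in 1 library and was lost without replicate 3. HES4 reached at most 0.216 CPM, in NOMO-1, and had no read in untreated KASUMI-1, MV-4-11, NB-4 and OCI-AML2.

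**Figure D1:**
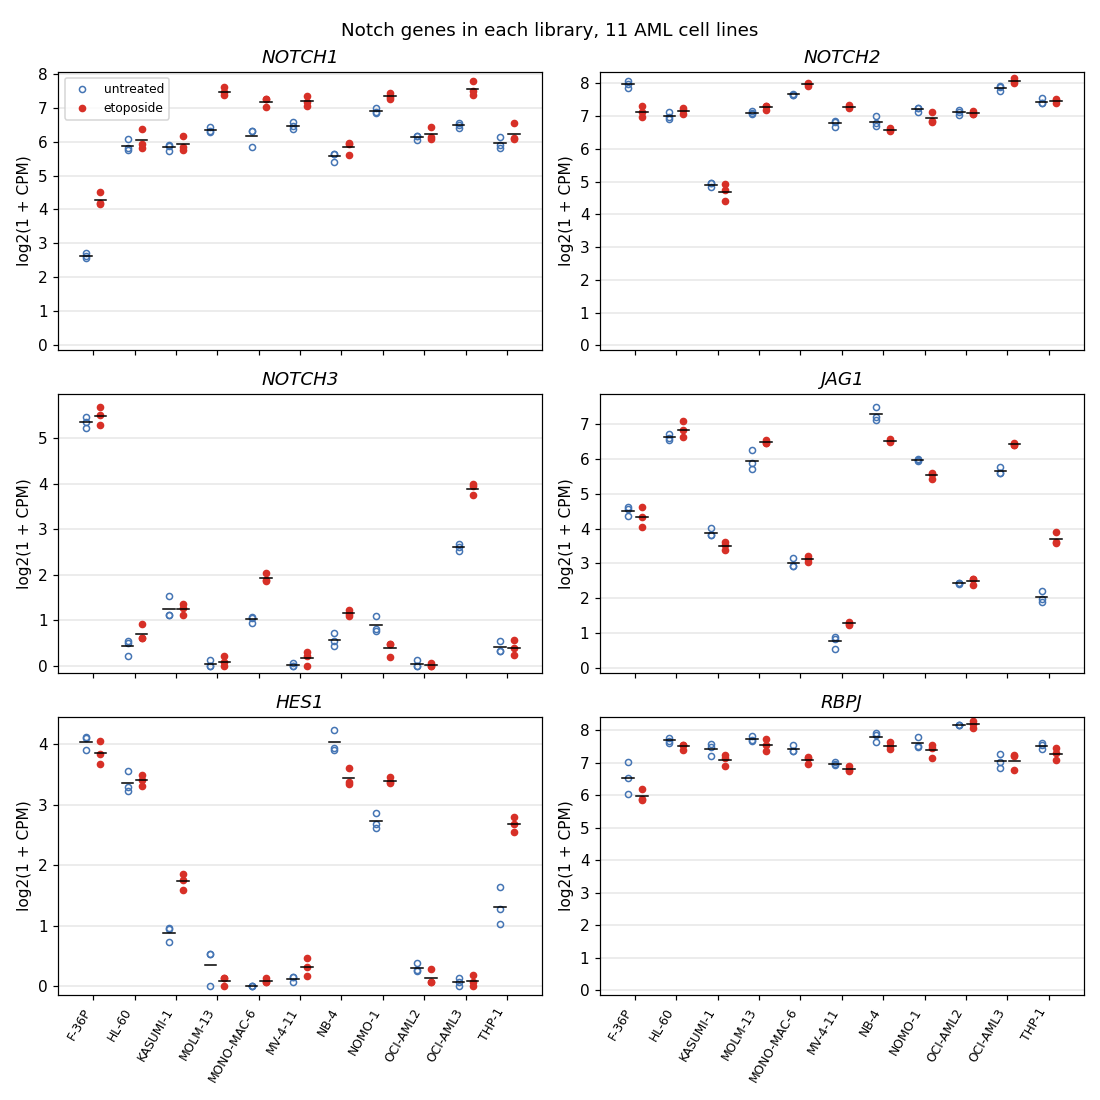
Level of 6 Notch genes in each of the 66 libraries, as log2(1 + CPM) normalized within each cell line, with open blue circles for untreated and filled red circles for etoposide libraries and black lines for the mean of 3. NOTCH1 is low in F-36P alone, NOTCH3 is high in F-36P and OCI-AML3, and HES1 is near 0 in MONO-MAC-6, MOLM-13, MV-4-11, OCI-AML2 and OCI-AML3.

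In all, 27 of 77 tested pairs of gene and line were called as basally different (FDR below 0.05 and more than 2-fold), for 7 of the 9 genes in each line. The shares of all genes called in the same contrasts were 35.2% in F-36P, 22.2% in HL-60, 28.7% in KASUMI-1, 20% in MOLM-13, 27% in MONO-MAC-6, 19.4% in MV-4-11, 23.1% in NB-4, 28.6% in NOMO-1, 23.9% in OCI-AML2, 24.3% in OCI-AML3 and 30.1% in THP-1. Each line had between 2 and 4 of its 7 tested Notch genes called. Across the 11 lines, log2(1 + CPM) of NOTCH1 and HES1 had a Pearson r of -0.61 and a Spearman rho of -0.62, and that of JAG1 and HES1 an r of 0.57 and a rho of 0.51. These describe 11 lines that share their libraries for both genes. For NOTCH1 and HEY1 r was -0.89 but rho only -0.23, with F-36P at the extreme of both genes. Of 13669 genes averaging 1 CPM or more, those with basal levels most like NOTCH1 were CIDEB (r = 0.98), SYNE3 (r = 0.97) and DENND3 (r = 0.96), over the same 11 lines.

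Etoposide raised NOTCH1 RNA more than 2-fold in F-36P, MOLM-13, MONO-MAC-6 and OCI-AML3, and the fitted change was above 0 in all 10 lines. In F-36P, NOTCH1 had 5.19, 4.93 and 5.62 CPM untreated and 17.3, 16.9 and 22.0 CPM after etoposide (log2 fold change 1.83, SE 0.159, adjusted p = 1.02e-05 by edgeR). All 3 treated libraries lay above the untreated ones, yet below every library of the other lines in CPM. In MOLM-13 the levels went from 77.6, 85.8 and 77.8 CPM to 166, 194 and 174 CPM (1.15, SE 0.080, adjusted p = 3.03e-06, edgeR). In OCI-AML3 they went from 83.9, 93.3 and 88.7 CPM to 165, 179 and 221 CPM (1.09, SE 0.11, adjusted p = 0.000153, edgeR). MONO-MAC-6, at 56.3, 78.6 and 78.4 CPM before and 130, 153 and 152 CPM after, passed the 2-fold limit narrowly (1.02, SE 0.111, adjusted p = 7.95e-06, edgeR). The groups did not overlap in any of these 4 lines. In bulk RNA, a change in the share of cells carrying a transcript and a change in RNA per cell cannot be told apart. In F-36P the summed level of the 4 epithelial or stromal markers also moved, from 2.31 to 3.36 CPM untreated to 33.6 to 39.5 CPM after etoposide, mostly through KRT18, and the erythroid sum went from 1066 to 1189 CPM down to 639 to 664 CPM. Of the 4 monocytic markers (CD14, LYZ, CD68 and CSF1R), 2 were called upward in MOLM-13, 2 in MONO-MAC-6, 2 in OCI-AML3 and 1 in F-36P, and none downward. Their sum ran from 1400 to 2253 CPM untreated and from 4753 to 5821 CPM after etoposide in MOLM-13, and from 409 to 455 CPM and from 1382 to 1473 CPM in OCI-AML3. In MONO-MAC-6 CD14 went from 24.3 to 166 CPM, while the sum, which is mostly LYZ, went from between 4094 and 4460 CPM to between 3368 and 3767 CPM. At least 1 of the 4 monocytic markers was called upward in each of the remaining lines of the 10 as well. Such calls were thus not particular to lines with NOTCH1 called. The part of these markers in the NOTCH1 change was not tested.

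The size of the call was close to the limit in 2 of them. The MONO-MAC-6 change fell below 2-fold without untreated replicate 1 (0.88), etoposide replicate 2 (0.98) or etoposide replicate 3 (0.99), and the OCI-AML3 change without etoposide replicate 3 (0.955). NOTCH1 rose by less than 2-fold with an adjusted p below 0.05 in MV-4-11 (0.74), NOMO-1 (0.43) and NB-4 (0.28). It did not pass in HL-60 (0.17), KASUMI-1 (0.11) or THP-1 (0.29). Over lines the mean log2 change was 0.71 ± 0.56 (SD, n = 10), and an exact two-sided sign-flip test gave p = 0.00195, the smallest it can give (adjusted p = 0.00991 over the genes tested in all 10 lines). In that test 43.3% of genes passed, so that such a result is common under etoposide. Within lines, a low p-value without a 2-fold limit was common too. Of all genes tested by edgeR, 6221 of 14789 in THP-1 and 9347 of 13998 in MV-4-11 had an unadjusted p below 0.05. These were the lowest and the highest share among the 10 lines.

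NOTCH2 crossed the 2-fold limit in none of 10 lines (0 by edgeR's quasi-likelihood and exact tests and by DESeq2, with 7 lines at an unadjusted p below 0.05). Such p-values were common among all genes, as given for NOTCH1. NOTCH2 passed the FDR limit upward in 3 lines and downward in 3. The ends were F-36P, from 267, 233 and 254 CPM to 140, 126 and 157 CPM (log2 fold change -0.83, adjusted p = 0.000185, edgeR), and MV-4-11, from 113, 114 and 102 CPM to 160, 151 and 154 CPM (0.50, adjusted p = 1.99e-07, edgeR). In F-36P the receptors thus moved in opposite directions, and neither pair of groups overlapped. Its NOTCH2 mean fell from 251 to 141 CPM while its NOTCH1 mean rose from 5.25 to 18.7 CPM. The mean NOTCH2 change over the lines was -0.02 ± 0.38 (exact sign-flip p = 0.889).

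NOTCH3 was tested in 7 lines and rose in 3. OCI-AML3 went from 5.07, 4.79 and 5.36 CPM to 12.4, 14.4 and 14.9 CPM (log2 fold change 1.45, SE 0.114, adjusted p = 3.80e-05, edgeR). MONO-MAC-6 went from 0.919, 1.09 and 1.08 CPM to 2.63, 3.11 and 2.71 CPM (1.44, SE 0.185, adjusted p = 3.26e-05, edgeR), so that in both of these lines NOTCH1 and NOTCH3 rose. NB-4 had 7, 12 and 8 reads untreated and 26, 29 and 26 reads after etoposide (1.31, adjusted p = 0.00232, edgeR). There NOTCH3 passed the filter on low counts only through the treated group, so this call says little by itself. NOMO-1 moved the other way, from 22, 15 and 13 reads to 8, 3 and 8 reads (-1.42, adjusted p = 0.0105, edgeR), and this call was lost without untreated replicate 1 (-1.18). In NOMO-1 the filter was passed only through the untreated group, with the same limit. F-36P, with the most NOTCH3, had a log2 change of 0.15 (adjusted p = 0.363, edgeR) with overlapping groups. NOTCH4 was tested in no line. In F-36P it had 0 reads untreated and 3, 8 and 10 reads after etoposide, at least 6.05-fold higher than the 3 reads taken as the floor of the untreated group.

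The ligand JAG1 changed in both directions. THP-1 rose most, from 3.62, 2.73 and 2.96 CPM to 11.1, 13.95 and 11.1 CPM (log2 fold change 1.96, SE 0.181, adjusted p = 2.67e-07, edgeR). MV-4-11 had 16, 8 and 15 reads untreated and 34, 34 and 36 reads after etoposide (1.01, adjusted p = 0.00356, edgeR), a call that was lost without untreated replicate 2 (0.79) or etoposide replicate 3 (0.96). In MV-4-11 JAG1 passed the filter on low counts only through the treated group. Both lines started from low levels. NB-4, the line with the most JAG1, went from 149, 138 and 182 CPM to 89.7, 91.0 and 94.3 CPM (-0.77, adjusted p = 1.06e-05, edgeR), without overlap but short of 2-fold. JAG1 passed the FDR limit upward in 4 lines and downward in 3, and its mean over the lines was 0.29 ± 0.82 (exact sign-flip p = 0.318). Low p-values without a 2-fold limit were common among all genes, as given for NOTCH1.

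RBPJ was lower after etoposide in 9 of 10 lines by small amounts. Its log2 change ran from -0.61 in F-36P to 0.02 in OCI-AML3, with a mean of -0.25 ± 0.16 (exact sign-flip p = 0.00391, adjusted p = 0.0147). It passed the FDR limit in 5 lines, downward in each, and the 2-fold limit in none (0 by edgeR's 2 tests and by DESeq2, with 5 lines at an unadjusted p below 0.05). Such p-values were common among all genes, as given for NOTCH1, so these counts do not set RBPJ apart. In MONO-MAC-6, with 186, 164 and 162 CPM before and 144, 125 and 139 CPM after, the groups did not overlap (-0.33, adjusted p = 0.00106, edgeR). In F-36P the untreated libraries spread from 65.3 to 130 CPM and overlapped the treated ones.

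HES1 rose more than 2-fold in THP-1 and KASUMI-1, neither of which had NOTCH1 called. THP-1 went from 1.41, 1.03 and 2.13 CPM to 5.91, 5.42 and 4.88 CPM (log2 fold change 1.82, SE 0.239, adjusted p = 1.57e-05, edgeR). KASUMI-1 had 13, 18 and 17 reads untreated and 60, 50 and 44 reads after etoposide (1.47, SE 0.227, adjusted p = 0.000379, edgeR). NOMO-1 rose by less, from 5.14, 6.30 and 5.40 CPM to 9.26, 9.96 and 9.35 CPM (0.76, adjusted p = 0.000418, edgeR). NB-4 went down from 13.9, 17.9 and 14.4 CPM to 9.41, 9.11 and 11.1 CPM (-0.64, adjusted p = 0.00086, edgeR). The groups did not overlap in these 4 lines. In the lines with HES1 called, myeloid markers moved too. CD14 went from 7.44 to 44.7 CPM in THP-1, where 1 of the 4 monocytic markers was called. In KASUMI-1, LYZ went from 57.5 to 326 CPM, CSF1R from 20.0 to 125 CPM and PTPRC from 32.5 to 123 CPM, each called upward, and MPO from 27110 to 13140 CPM, called downward. In HL-60, NB-4, NOMO-1 and MV-4-11, where neither NOTCH1 nor HES1 was called, 1 of the 4 monocytic markers was called upward too. The part of the myeloid markers in the HES1 change was not tested. F-36P (-0.19, adjusted p = 0.299) and HL-60 (0.04, adjusted p = 0.855) did not pass.

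Of the 4 lines in which NOTCH1 was called, HES1 was tested only in F-36P. The other 3 had too few reads in both groups to pass the filter on low counts. HES1 went from 0, 9 and 9 to 0, 2 and 2 reads in MOLM-13, from 0 to 1, 2 and 1 reads in MONO-MAC-6, and from 0, 1 and 2 to 1, 0 and 3 reads in OCI-AML3. No line had both NOTCH1 and HES1 called. In the treated groups of those 3 lines HES1 averaged from 0.0602 to 0.0676 CPM, and NOTCH1 had from 130 to 221 CPM per library. The NOTCH1 transcript is longer, with 9568 bases against 1575 for HES1. HES1 is only 1 of the targets, and HEY1 and HES4 are described next.

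HEY1 passed the filter on low counts in 2 lines, in NB-4 only through the treated group, so that the count of lines called says little by itself. NB-4 had 1, 3 and 2 reads untreated and 11, 24 and 15 reads after etoposide (log2 fold change 2.73, SE 0.557, adjusted p = 0.0006, edgeR), so that HEY1 rose there while HES1 went down. F-36P had 14, 14 and 18 reads before and 40, 27 and 44 reads after (1.04, SE 0.261, adjusted p = 0.00586, edgeR). The F-36P change fell just under 2-fold with RLE normalization (0.99), with no filter on low counts (0.93), with DESeq2 (0.997) and without untreated replicate 1 (0.94), untreated replicate 2 (0.98), etoposide replicate 1 (0.997) or etoposide replicate 3 (0.90). THP-1, which had no HEY1 read untreated, had 5, 6 and 9 reads after etoposide, at least 5.91-fold higher than the same floor. HES4 was tested in no line. Its reads went from 1, 1 and 0 to 7, 6 and 21 in F-36P and from 1, 2 and 3 to 11, 8 and 11 in OCI-AML3. They went from 1, 7 and 6 to 11, 11 and 9 in NOMO-1 and from 2, 5 and 2 to 5, 6 and 7 in HL-60. The groups did not overlap in CPM in these 4 lines. The share of all genes without overlap is not given here, so this only describes the libraries.

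**Figure D2:**
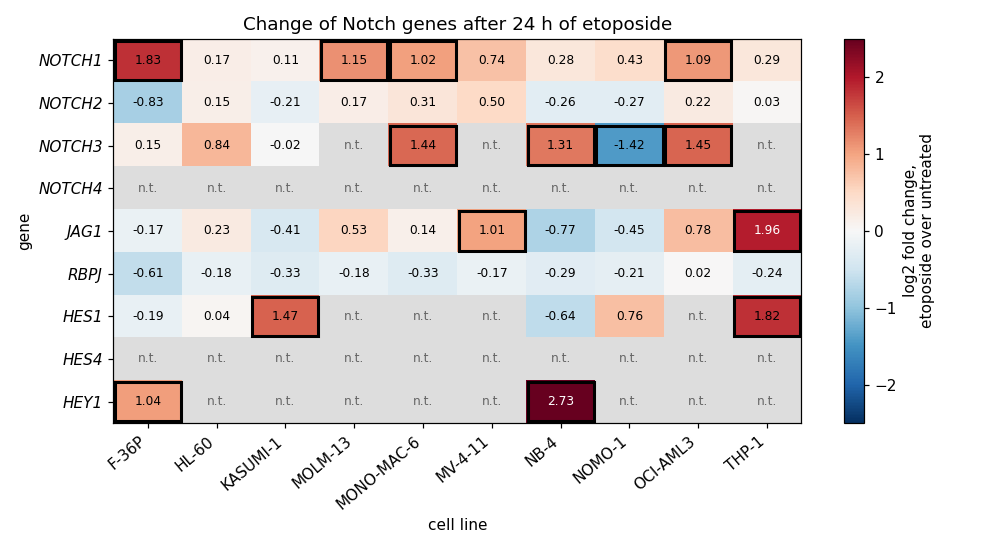
Fitted log2 fold change of each Notch gene (rows) after 24 h of etoposide in 10 cell lines (columns), coloured from blue (lower) to red (higher), with a black frame where a change was called and n.t. where too few reads allowed no test. The NOTCH1 row is above 0 throughout with 4 frames, the RBPJ row is near 0, and NOTCH3 holds the only call downward, in NOMO-1.

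Over the 10 lines, 55 of 90 pairs of gene and line could be tested and 14 were called, 13 upward and 1 downward. Of these calls, NOTCH3 and HEY1 in NB-4, NOTCH3 in NOMO-1 and JAG1 in MV-4-11 passed the filter only through their higher group. The shares of all tested genes called were 30.9% in F-36P, 6.58% in HL-60, 21.1% in KASUMI-1, 12% in MOLM-13, 13% in MONO-MAC-6, 15.1% in MV-4-11, 18% in NB-4, 12.8% in NOMO-1, 8.54% in OCI-AML3 and 9.83% in THP-1. The Notch genes called were 2 of 7 tested in F-36P and NB-4, 2 of 5 in MONO-MAC-6, OCI-AML3 and THP-1, 1 of 6 in KASUMI-1 and NOMO-1, 1 of 4 in MOLM-13 and MV-4-11 and 0 of 6 in HL-60. With 4 to 7 genes per line, 1 call moves such a share widely, and in F-36P, KASUMI-1 and NOMO-1 it lay near the background. HL-60 had no Notch gene called by edgeR or DESeq2, and none of its 6 tested genes had an unadjusted p below 0.05. Of all 13210 genes tested in HL-60, 5671 had such a p by edgeR. In OCI-AML2, where 0% of all genes were called, none of the 4 tested Notch genes was called by either tool or had an unadjusted p below 0.05. In that line only 456 of 13604 genes had such a p by edgeR. Its NOTCH1 libraries held 65.6, 70.4 and 70.9 CPM untreated and 70.0, 65.9 and 85.4 CPM labelled etoposide, and CDKN1A had a log2 change of 0.73.

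**Figure D3:**
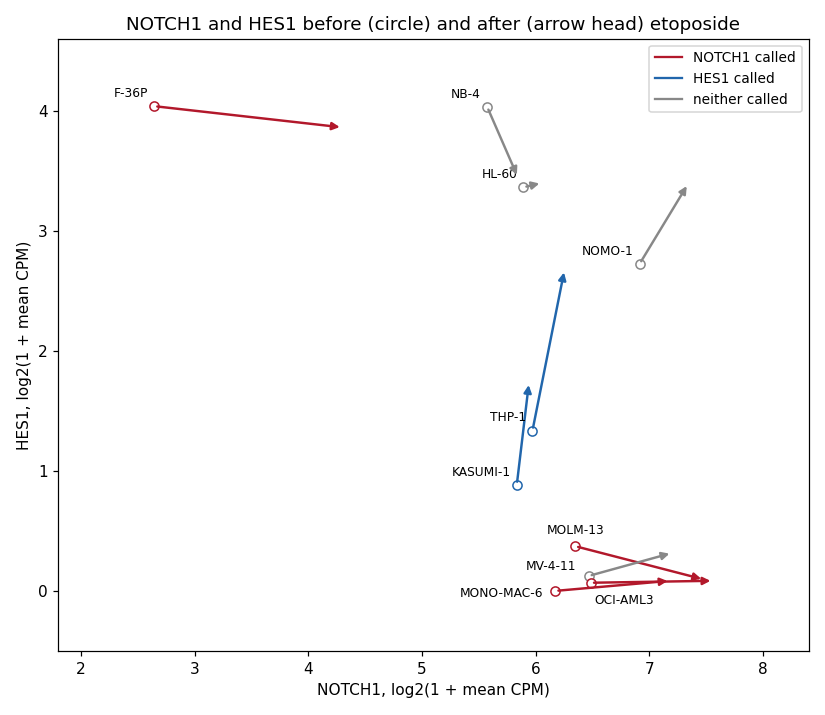
Mean level of NOTCH1 (x axis) against HES1 (y axis), both as log2(1 + mean CPM of 3 libraries), before (circle) and after etoposide (arrow head) in 10 cell lines, coloured by which gene was called. The 4 lines with NOTCH1 called move along the x axis, and THP-1 and KASUMI-1, with HES1 called, move up the y axis.

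Responses differed between lines for 6 of the 9 genes in a joint fit of 60 libraries (F-test of the interaction of line and etoposide, edgeR). The adjusted p was 1.48e-10 for NOTCH1, 2.64e-11 for NOTCH2, 2.24e-07 for NOTCH3, 5.87e-17 for JAG1, 9.46e-10 for HES1 and 0.00354 for HEY1. It was 0.337 for RBPJ and 0.143 for HES4. Such differences were the rule, as 74.5% of all genes passed. Against the mean response of the other 9 lines, the NOTCH1 response of F-36P was larger by 1.27 on the log2 scale (SE 0.172, adjusted p = 2.14e-08) and the JAG1 response of THP-1 by 1.87 (SE 0.165, adjusted p = 4.54e-13). The JAG1 response of NB-4 was lower by 1.15 (log2 difference -1.15, SE 0.126, adjusted p = 2.99e-10). The NOTCH3 response of NOMO-1 was called lower too (-2.44, SE 0.455, adjusted p = 3.69e-05), from 50 and 19 reads. Within NOMO-1, NOTCH3 passed the filter on low counts only through the untreated group. The HES1 response was called lower in NB-4 (-1.39, adjusted p = 0.00094) and in MOLM-13 (-2.89, adjusted p = 0.00287), the latter from 18 and 4 reads. For HES1 and NOTCH3 the mean of the other lines includes lines with hardly any read, such as MV-4-11 with 1 and 10 NOTCH3 reads. The size of the HES1 and NOTCH3 differences is thus uncertain. The seventh call, HEY1 in OCI-AML3, rests on 3 reads untreated and 0 after. In these contrasts, 11.4% of all genes were called in F-36P, 2.89% in HL-60, 7.79% in KASUMI-1, 5.53% in MOLM-13, 3.94% in MONO-MAC-6, 3.08% in MV-4-11, 5.19% in NB-4, 5.81% in NOMO-1, 4.02% in OCI-AML3 and 6.51% in THP-1.

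A further 46 genes of the pathway were followed by role, of which 43 could be tested in at least 1 of the 10 lines. Among 381 tested pairs of gene and line, 30 were induced and 10 repressed, and no gene was called in both directions. This is 10.5% of the pairs, within the range of 6.58% to 30.9% of all genes called per line, so that the list as a whole did not stand out from the background. The 5 glycosyltransferases, which add sugars to the receptors, held 8 inductions and 1 repression. LFNG, which extends O-fucose on Notch, accounted for most of them. It was induced in 7 of 10 lines and above 0 in all 10, with a mean log2 change of 1.52 ± 0.95 (exact sign-flip p = 0.00195, adjusted p = 0.00991). LFNG went from 1.13 to 8.63 CPM in F-36P (log2 fold change 2.92), from 0.318 to 2.74 CPM in KASUMI-1 (3.09), from 2.17 to 9.69 CPM in NB-4 (2.15) and, at the highest level, from 31.1 to 68.8 CPM in MONO-MAC-6 (1.14). In KASUMI-1 LFNG passed the filter on low counts only through the treated group.

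Among the 5 coactivators, the Mastermind genes moved apart. MAML2 was induced in 6 of 8 lines tested, from 0.229 to 1.85 CPM in KASUMI-1 (log2 fold change 2.98) and from 3.11 to 9.63 CPM in NOMO-1 (1.62), and its lowest change was 0.89. In KASUMI-1 MAML2 passed the filter on low counts only through the treated group. Lines with few MAML2 reads in both groups were not tested, so the filter partly sets this count and lowest change. MAML3 was repressed in 3 lines, from 49.1 to 9.65 CPM in F-36P (-2.35), from 53.1 to 18.1 CPM in KASUMI-1 (-1.55) and from 3.33 to 1.66 CPM in NB-4 (-1.003), and was above 0 in 1 line only. MAML1 and EP300 were called in no line.

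The 4 other ligands held 7 inductions and 3 repressions. JAG2 rose in F-36P (2.12), KASUMI-1 (1.74) and MV-4-11, where it went from 2.28 to 9.30 CPM (2.03). DLL3, an inhibitory ligand, had a change below 0 in each of the 5 lines tested and was repressed in 3 of them, most in KASUMI-1, from 15.9 to 5.76 CPM (-1.46). Of the 1198 untreated DLL3 reads over the 10 lines, 901 were in 1 line. Lines with few DLL3 reads in both groups were not tested, so the filter partly sets these counts and their direction. Of the 8 other target genes, 2 were called. HEYL rose in F-36P (2.25), MV-4-11 (1.43) and NB-4 (1.20), the first of these from 10 to 57 reads. In F-36P HEYL passed the filter on low counts only through the treated group. NRARP, a feedback inhibitor of Notch, was repressed in 2 of 9 lines tested and induced in none. The 9 receptor-processing genes, among them ADAM10 and NCSTN, held 3 inductions and 0 repressions in 89 tested pairs, those of PSEN2 and APH1B. The 6 corepressors held 1 induction and the 9 turnover genes 2 inductions and 1 repression.

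**Figure D4:**
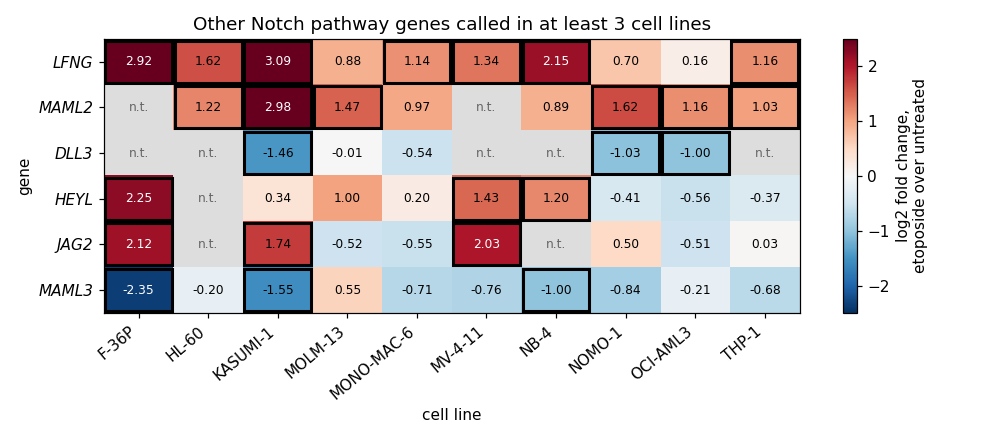
Fitted log2 fold change after etoposide of the 6 other Notch pathway genes that were called in at least 3 of 10 cell lines, in the same colours and frames as for the receptors and targets, with n.t. where a gene could not be tested. LFNG is above 0 in all 10 lines and framed in 7, MAML2 is above 0 in the 8 tested lines, and MAML3 and DLL3 are framed only where lower.

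The median change of the tested pathway genes lay between -0.23 (KASUMI-1) and 0.10 (MOLM-13) over the 10 lines, beside medians of all genes from -0.034 (THP-1) to 0.086 (F-36P). Before treatment, 19 of the 46 were called as basally different in at least 3 lines, where 27.3% of the tested pairs were called beside 19.4% to 35.2% of all genes per line. They were JAG2, DLL1, DLL3, DLL4, PSEN2, APH1B, LFNG, MFNG, MAML2, MAML3, TLE1, NEURL1, DTX3, DTX4, HES2, HES6, HES7, HEYL and NRARP. MFNG, a second Fringe enzyme, spanned 0.208 to 252 CPM with a median of 194 CPM, and was called in all 11 lines, 8 higher and 3 lower. As for NOTCH3, lines near 0 weigh heavily on the log scale, so these calls do not set 11 levels apart. HES2 and HES7, called higher in 4 lines each, had medians of 0.0352 and 0.0655 CPM, close to the counting limit. HES6 spanned 11.3 to 162 CPM and NRARP 0.191 to 15.2 CPM. Basal ADAM10, ADAM17 and NCSTN differed no more than 2.64-fold between the highest and the lowest line and were called in none.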

How the data were processed

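Counts of reads per gene were analysed from 66 libraries of 11 AML cell lines, untreated or treated with etoposide, with 3 per group. The authors deposited raw counts, 1 column per library without normalization. Per the study's methods and the submitters' processing notes, reads from a stranded mRNA kit were checked with FastQC 0.11.5, mapped with STAR 2.5.3a to GRCh38.p7, and compared with edgeR 3.20.1. The strand setting of the deposited column is not given in the sources used here. It separates strands, as 470 of 716 genes that lie inside an opposite-strand exon hold reads. Copies of 45 genes on the pseudoautosomal part of chromosome Y, with 0 reads, were left out, and names and positions came from gencode annotation on GRCh38 for 56948 of 57992 identifiers.

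From the counts, CPM was computed with TMM factors within each line for responses and across all 33 untreated libraries for levels before treatment, and RPKM from the length of the canonical transcript. Responses were tested in R 4.3.3 with edgeR 4.0.16 for each line (filterByExpr with min.count 10 and min.total.count 15, quasi-likelihood test, Benjamini-Hochberg over all genes). A gene was called with FDR below 0.05 and a fold change above 2. Basal levels were tested in 1 fit of the untreated libraries, each line against the mean of the other 10, and differences in response in 1 fit of 60 libraries. Changes over lines were tested by an exact sign-flip test over all flips. DESeq2 1.42.0, the exact test of edgeR, other normalizations and filters, the replicate number as a block and each replicate left out were alternatives. Figures used Python 3.11.15 with matplotlib 3.10.9. Scripts were tested on simulated data.

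Replicate numbers come from the sample titles. Libraries with the same number deviated together (r above 0.1 in each of 3 pairs, computed on log CPM after subtracting group means) in NB-4 only, where the lowest r was 0.152, so the numbers pair the libraries in that line. No 2 libraries agreed within sampling noise, as the lowest chi-square per degree of freedom over 66 replicate pairs was 2.12.

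Named genes were the 9 members, the other pathway genes called in at least 3 lines for the response or the basal level, and the 3 genes with basal levels most like NOTCH1. HES1 and HES4 were not tested in all 10 lines, so no genes with a like response were sought. ADAM10, ADAM17, NCSTN, MAML1 and EP300, called in no line, were named after their values were seen. The members and lists were chosen with earlier results of these data known. Networks and inhibitor experiments were not analysed here.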

Additional observations from a re-analysis of the deposited data

Results flagged for a closer look

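The etoposide response of 6 Notch genes differed between the 10 cell lines by the interaction test of edgeR, which is why they are listed here. The adjusted p was 1.48e-10 for NOTCH1, 2.636e-11 for NOTCH2, 2.244e-07 for NOTCH3, 5.874e-17 for JAG1, 9.457e-10 for HES1 and 0.003539 for HEY1. NOTCH1 was higher after etoposide in each of 10 lines and differed in size, from 0.11 in KASUMI-1 to 1.83 in F-36P on the log2 scale. NOTCH2, JAG1 and HES1 passed the FDR limit upward in some lines and downward in others, the ends being -0.83 and 0.50 for NOTCH2, -0.77 and 1.96 for JAG1 and -0.64 and 1.82 for HES1. NOTCH3 ran from -1.42 in NOMO-1 to 1.45 in OCI-AML3. HEY1 could be tested within 2 lines only, and its levels are a few reads per library in most lines. Of all genes, 74.5% passed the same test, so passing it does not set these 6 genes apart.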

How the results depend on the processing

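Counts of calls among the 9 genes depended most on the limits themselves. The 14 response calls became 6 when a mean of at least 5 CPM was required, since fewer pairs were then tested, and 35 with no fold change minimum. The 27 basal calls became 49 with no fold change minimum. Under the other normalizations and tests there were 13 or 14 response calls, with no filter on low counts 21 (among them NOTCH4 in 3 lines, HES4 in 2, and HES1 and HEY1 in 3 each, on few reads), with 1 fit of 60 libraries 19, and with a replicate left out 10 to 15. With the replicate number as a block, all 14 response calls were kept, 6 genes again differed between lines and 6 rather than 7 pairs of gene and line had a response apart, the lost one being HEY1 in OCI-AML3. The block changed no other call of these genes. In lines other than NB-4 the libraries share only a number. No result reversed its direction among the alternatives run, and 384 values of single called genes stayed on their side of the limit and 22 did not, where they were tested. OCI-AML2 gave 0 calls under each alternative. Genes with fewer than about 10 reads per library in both groups, which include NOTCH4 and HES4 in every line and HES1 in 4 of the 10, were mostly removed by the filter on low counts. HES4 was called in 1 line without untreated replicate 1, 2 or 3 and without etoposide replicate 1 or 2. With 1 fit of 60 libraries it was called in 2 lines.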
